A study of Mus musculus with 4 samples.

Results

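De novo lipogenesis, the building of new fatty acids from acetyl-CoA, is described here through 10 genes: Acly, Acaca, Acacb, Fasn, Me1, Elovl6, Scd1, Scd2, Srebf1 and Mlxipl. They were chosen by symbol, as fatty acid synthesis genes and their regulators. All 10 were present in both tables analysed, among 25522 rows for mice without and 26085 rows for mice with tetracycline. The RNA came from crypts of the small intestine, the pits of the gut lining that hold its stem cells, and the cells are labelled as epithelial. All groups were male C57BL/6J mice aged 9 weeks. The 4 groups were fed mice without tetracycline, mice fasted for 24 h without tetracycline, fed mice given the antibiotic tetracycline for 21 days, and tetracycline-treated mice fasted for 24 h. The design text asks how fed and fasted mice differ in expression once tetracycline has depleted what it abbreviates as AKK, which the labels do not spell out. The labels list 1 sample per group and do not say how many mice a sample holds.

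In the synthesis pathway, ATP citrate lyase (Acly) makes acetyl-CoA in the cytosol, acetyl-CoA carboxylase (Acaca, Acacb) turns it into malonyl-CoA, and fatty acid synthase (Fasn) builds palmitate from it with NADPH that malic enzyme (Me1) helps to supply. Elovl6 lengthens palmitate and the stearoyl-CoA desaturases (Scd1, Scd2) put a double bond into the product. SREBP-1 (Srebf1) and ChREBP (Mlxipl) are transcription factors known from liver to drive these genes after feeding, SREBP-1 in response to insulin and ChREBP in response to sugar, and the pathway as a whole is known there to fall in fasting.

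The authors' own comparisons were deposited as a table for each tetracycline state, so no column holds a single library. The deposited means could nevertheless be resolved into whole counts of 4 libraries per table, 2 fasted and 2 fed, for all 10 genes in both tables. Below, a normalized count is such a count divided by its library's size factor, the number that corrects for depth, and within a pair library 1 has the larger size factor. Size factors ran from 0.92986 to 1.09016 without and from 0.72684 to 1.26988 with tetracycline. The smallest belonged to fasted library 2 with tetracycline. These libraries could not be tied to the labelled samples and are shown singly. No source says that they came from separate mice, so the p-values measure only the spread between these libraries, which may be technical. Changes are fasted over fed, a direction read from the order of words in the tables' names. A gene is called where the authors' adjusted p, from the DESeq2 Wald test with Benjamini-Hochberg adjustment, is under 0.05.

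Fasting did not move the 10 genes one way. Without tetracycline 3 of the 10 were called: Acacb rose, and Scd1 and Scd2 fell. With tetracycline 2 of the 10 were called: Acacb rose and Scd2 fell. Of 18100 genes tested in the authors' deposited table, 2.27% were called without tetracycline, 1.06% higher and 1.22% lower in fasted mice. With tetracycline 0.6% of 17993 were called, 0.333% higher and 0.267% lower. The median log2 change of the 10 genes was -0.03 without and -0.30 with tetracycline, beside 0.01 and -0.02 over all tested genes. The members were well-measured genes, with deposited means of 372 to 8708 and 520.1 to 8719.8 against a median over all rows of 69.6 and 66.4. These are bulk samples, so fewer cells of a type and less RNA per cell cannot be told apart.

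**Figure D1:**
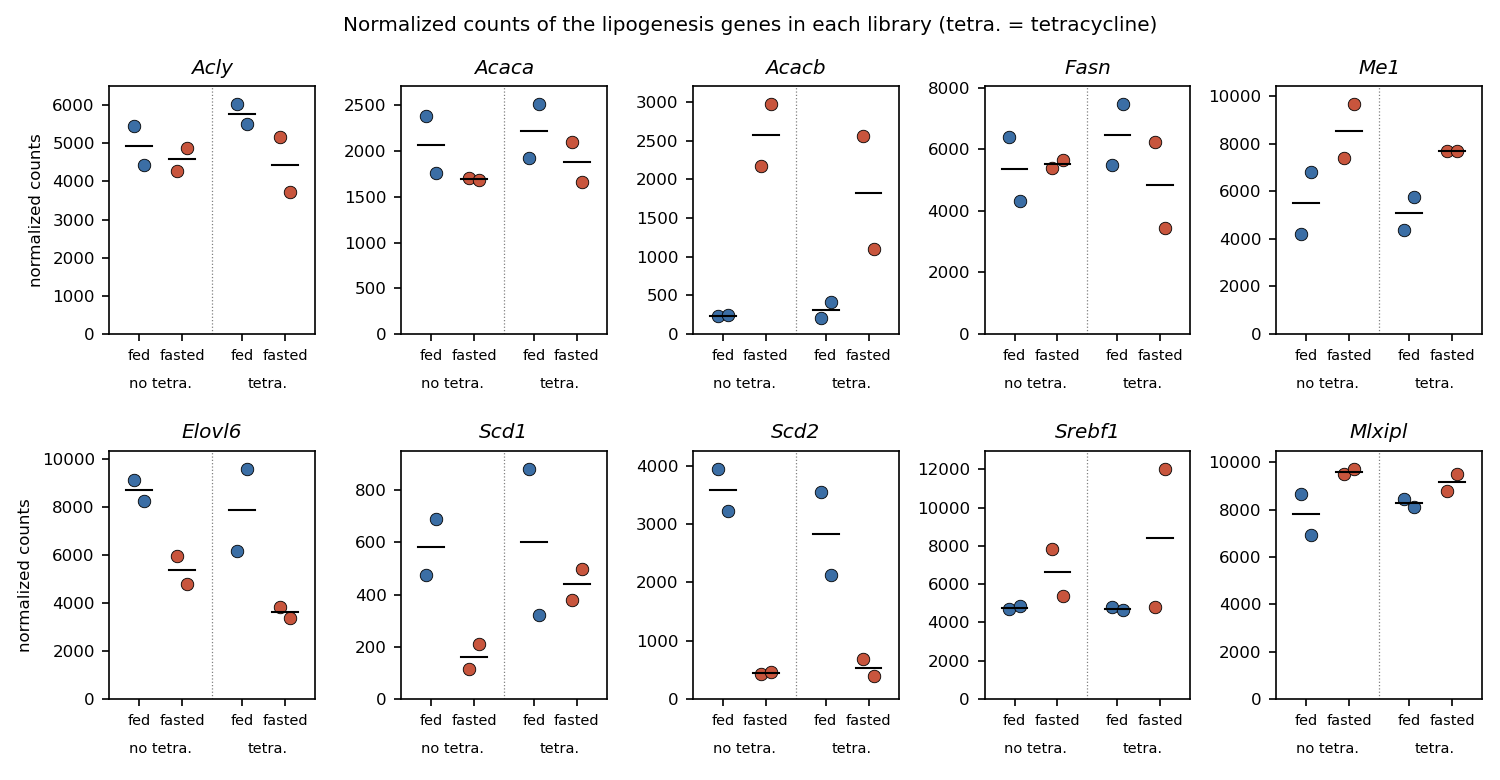
Normalized counts (vertical axes, linear, from 0) of the 10 genes in each library, with fed libraries in blue, fasted libraries in red, tables without and with tetracycline left and right of the dotted line, and the mean of each pair as a bar. The fasted libraries of Acacb lie between 1098 and 2972 and its fed libraries between 203 and 413, while those of Scd2 lie between 395 and 684 when fasted and between 2120.5 and 3939.8 when fed.

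Acetyl-CoA carboxylase is encoded by a pair of genes. Acaca (ENSMUSG00000020532.19, chr11:84129672-84401651, + strand) makes the cytosolic enzyme whose malonyl-CoA feeds synthesis. Acacb (ENSMUSG00000042010.17, chr5:114146535-114250761, + strand) makes the enzyme at the outer mitochondrial membrane, whose malonyl-CoA is known to inhibit CPT1, the entry step of fatty acid oxidation. Positions are those of GENCODE M21 on GRCm38.

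The window of 250 bases before the Acacb start in the RefSeq promoter table (GRCm38.p6, chr5:114165268-114165517, + strand) is shown because Acacb was the called gene that rose. This window lies inside the annotated gene, in an intron of the longer transcript with the last 9 bases in its next exon. The window of the same length before Fasn (chr11:120824548-120824797, - strand, read on the gene's strand) lies wholly outside the gene and is shown as that of the central enzyme, which was not called. Capitals mark CCAAT on either strand.
Acacb: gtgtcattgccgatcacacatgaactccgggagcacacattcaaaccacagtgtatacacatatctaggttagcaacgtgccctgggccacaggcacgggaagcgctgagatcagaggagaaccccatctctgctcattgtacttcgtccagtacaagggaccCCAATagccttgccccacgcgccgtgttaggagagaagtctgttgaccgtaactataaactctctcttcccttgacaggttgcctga
Fasn: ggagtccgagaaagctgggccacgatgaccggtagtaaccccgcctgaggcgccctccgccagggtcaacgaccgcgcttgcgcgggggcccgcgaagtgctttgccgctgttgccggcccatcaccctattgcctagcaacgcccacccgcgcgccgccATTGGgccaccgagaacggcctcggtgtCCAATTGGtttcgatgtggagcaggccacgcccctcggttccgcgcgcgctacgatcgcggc
CCAAT begins 87 bases before the Acacb start, and 90, 62 and 59 bases before the Fasn start, where the last 2 overlap on opposite strands. The table holds 12 promoters of 8 members and none for Scd1 and Scd2, so Acacb is the only called gene covered. The Acaca window, and some of the windows of Me1, Mlxipl and Srebf1, also lie wholly inside the annotated gene. Motifs were searched on both strands in the 250 bases before the start: CCAAT was in 6 of the 12 and in 33.8% of all 32851 promoters, and GGGCGG in 5 of the 12 and in 32.7%. TCACNCCAC, the core of a sterol regulatory element, was in 1 of the 12, a Mlxipl promoter, and in 1.05% of all promoters. The E-box CACGTG was likewise in 1 of the 12, the other Mlxipl promoter, and in 6.02%. These are matches of letters, with no measurement of binding.

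Acacb had the largest rise of the 10 genes in both tables. Without tetracycline its normalized counts were 2175 and 2972 in the fasted libraries and 226 and 249 in the fed ones. With tetracycline they were 2561 and 1098 against 203 and 413. The fasted libraries lay above the fed ones in both tables, and fasted library 2 with tetracycline had less Acacb than the other fasted library of its table. The authors' deposited tables give a log2 change of 3.44 (SE 0.29, 95% interval 2.86 to 4.01, adjusted p = 2.99e-28 by the DESeq2 Wald test) without tetracycline, a 10.8-fold rise. With tetracycline the deposited change was 2.57 (SE 0.59, 1.42 to 3.73, adjusted p = 0.004), a 5.95-fold rise. By p, Acacb ranked 5 among the tested genes without and 56 with tetracycline. The value with tetracycline depended on single libraries: it was 1.83 without fasted library 1 and 3.17 without fed library 2, as values with no test.

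Acaca stayed closer to its fed level. Its normalized counts without tetracycline were 1709 and 1685 fasted against 2381 and 1758 fed, and with tetracycline 2104 and 1667 against 1921 and 2512. The fasted libraries were lower without overlap in the first table and overlapped the fed ones in the other. Neither deposited change was called, at -0.29 (95% interval -0.83 to 0.26) and -0.23 (-1.01 to 0.55).

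Within a library, the 2 carboxylase genes can be set against each other without any scaling. Acacb made up 8.68% (7.63 to 9.82) and 12.4% (11 to 13.9) of Acacb and Acaca counts in the fed libraries without tetracycline. It made up 56% (54.5 to 57.5) and 63.8% (62.4 to 65.3) in the fasted ones. With tetracycline the shares were 9.57% (8.48 to 10.7) and 14.1% (12.8 to 15.5) fed, against 54.9% (53.6 to 56.2) and 39.7% (37.6 to 41.9) fasted. The intervals are 95% exact Clopper-Pearson intervals that cover counting error only, and no fed share came near a fasted one. The transcripts of the 2 genes shared 0 runs of 31 bases. Their summed normalized count was 2607 and 2007 fed and 3884 and 4658 fasted without tetracycline, and 2124 and 2925 fed and 4665 and 2765 fasted with it. The fasted sums thus lay above the fed ones without tetracycline and overlapped them with it.

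**Figure D2:**
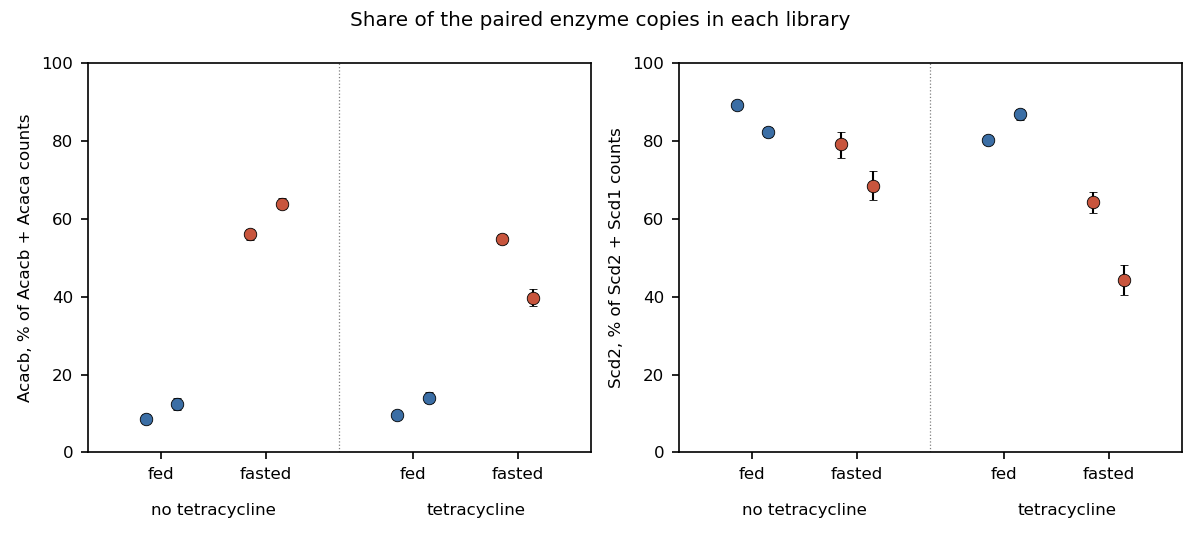
Share of Acacb in the summed counts of Acacb and Acaca (left) and of Scd2 in those of Scd2 and Scd1 (right), in percent, with 1 point per library and 95% Clopper-Pearson bars for counting error. Acacb takes 8.68% to 14.1% in the fed libraries (blue) and 39.7% to 63.8% in the fasted ones (red), and Scd2 takes 80.2% to 89.3% fed and 44.2% to 79.1% fasted.

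Fasn, Acly and Me1 were not called in either table. Fasn (chr11:120805846-120824547, - strand), which carries out the chain-building steps, had 5392 and 5641 normalized counts fasted and 6397 and 4320.0 fed without tetracycline. Under tetracycline it had 6233 and 3438 fasted and 5474 and 7455 fed. The groups overlapped in both tables, and the authors' deposited changes were 0.04 (SE 0.29, 95% interval -0.52 to 0.60) and -0.42 (SE 0.47, -1.33 to 0.50). The interval without tetracycline excludes a fall of the size deposited for Scd1 or Scd2. The sign of the value without tetracycline turned when fed library 2 was left out, to -0.21.

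Acly (chr11:100476353-100528000, - strand) had 4274 and 4877 normalized counts fasted and 5455 and 4422 fed without tetracycline, which overlap. The tetracycline libraries had 5168 and 3711 fasted, both below the 6019 and 5492 of the fed libraries. Its deposited changes were -0.11 (95% interval -0.63 to 0.41) and -0.37 (-1.14 to 0.39). Without tetracycline its sign turned, to 0.05, when fed library 1 was left out.

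Me1 (chr9:86581371-86695953, - strand) lay higher in the fasted libraries. Its normalized counts were 7423 and 9665 fasted against 4201 and 6806 fed without tetracycline. With tetracycline they were 7702 and 7698 against 4376 and 5774. No fasted library reached down to a fed one in either table. The authors' deposited changes were 0.63 (95% interval 0.02 to 1.25, DESeq2 adjusted p = 0.434) and 0.60 (-0.14 to 1.34, adjusted p = 1), so neither was called.

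**Figure D3:**
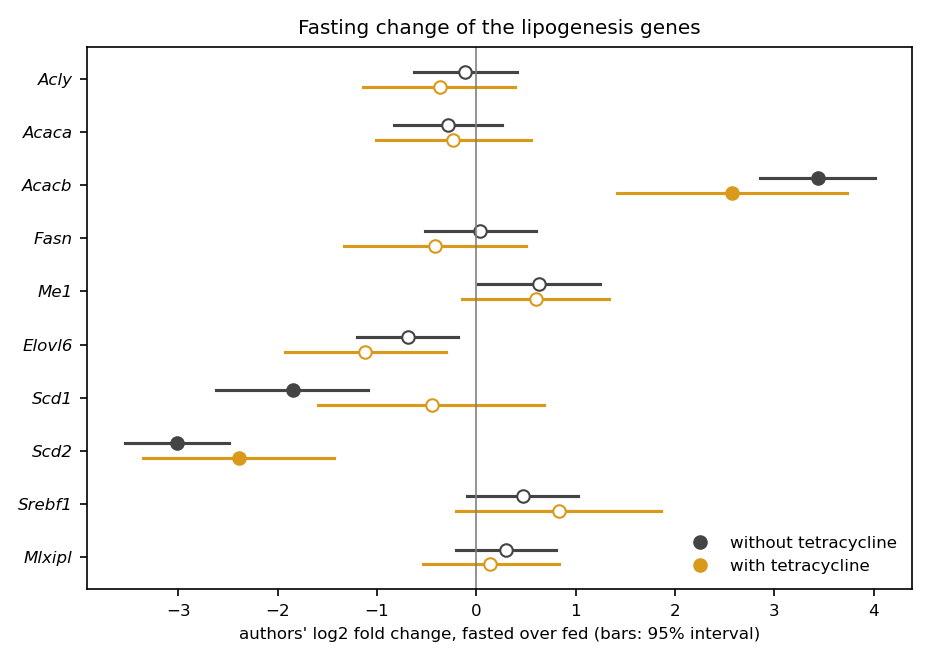
The authors' log2 fold change, fasted over fed (horizontal axis), of the 10 genes without (dark) and with (yellow) tetracycline, with 95% intervals as bars and filled points where the authors' adjusted p is under 0.05. Acacb stands alone at 3.44 and 2.57 on the right, and Scd2 lies at -3.01 and -2.39 on the left.

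Of the genes that act on the finished chain, Elovl6 and Scd2 lay lower in the fasted libraries of both tables and Scd1 in those without tetracycline. Elovl6 (chr3:129532355-129638495, + strand), the elongase of palmitate, had 5969 and 4799 normalized counts fasted and 9128 and 8255 fed without tetracycline. With tetracycline it had 3824 and 3394 fasted and 6152 and 9568 fed. The fasted libraries were below the fed ones in both tables. Its deposited changes were -0.69 (SE 0.26, 95% interval -1.20 to -0.18) and -1.12 (SE 0.41, -1.93 to -0.31). Both missed the threshold after adjustment over all genes (DESeq2 Wald test, adjusted p = 0.177 and 0.416, unadjusted p = 0.00799 and 0.00675).

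Scd1 (ENSMUSG00000037071.4, chr19:44394455-44407879, - strand) and Scd2 (ENSMUSG00000025203.7, chr19:44293674-44306864, + strand) are neighbouring copies of stearoyl-CoA desaturase, Scd1 being known as the main form of liver and Scd2 as a widely expressed one. Their coding sequences of 1065 and 1074 bases were identical at 962 of 1065 aligned positions (90.3%) in the GENCODE M21 transcripts. The 60-base coding windows that differ most and least are printed because reads are told apart only where the copies differ. In the first window 36 bases are identical and 24, in capitals, differ (coding bases 79 to 138 of Scd1 and 88 to 147 of Scd2). In the other window (442 to 501 and 451 to 510) all 60 are identical.
Scd1: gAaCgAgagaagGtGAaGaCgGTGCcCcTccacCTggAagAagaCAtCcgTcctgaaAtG
Scd2: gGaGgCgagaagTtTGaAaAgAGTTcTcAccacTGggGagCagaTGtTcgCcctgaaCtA
Scd1 and Scd2: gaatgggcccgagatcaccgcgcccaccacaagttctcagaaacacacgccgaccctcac
Over the whole transcripts the longest identical run was 147 bases, and 253 runs of 31 bases were shared, 5.18% of those of Scd1 and 4.63% of those of Scd2. The authors' counting could split reads from such stretches, so the split between the copies is uncertain. The percentages do not bound this doubt, since shared reads of the more abundant copy can weigh heavily on the other.

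Scd2 fell most of the 10 genes. Its normalized counts without tetracycline were 430.2 and 457 fasted against 3939.8 and 3231 fed. With tetracycline they were 684 and 395 against 3555 and 2120.5. Every fasted library lay below every fed library. The authors' deposited tables give log2 changes of -3.01 (SE 0.27, 95% interval -3.54 to -2.49, DESeq2 adjusted p = 6.64e-26) without and -2.39 (SE 0.49, -3.36 to -1.43, adjusted p = 0.000569) with tetracycline. Scd2 was thus 8.08-fold and 5.26-fold lower in fasted mice, and ranked 7 and 40 among the tested genes by p.

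Scd1 had fewer normalized counts per kilobase than Scd2 in 7 of the 8 libraries, the exception being fasted library 2 with tetracycline. Without tetracycline it had 114 and 209.7 normalized counts fasted and 473 and 691 fed, with no overlap, and it fell by 1.85 on the log2 scale (SE 0.39, 95% interval -2.62 to -1.09, adjusted p = 0.000333 by the DESeq2 Wald test), a 3.61-fold fall. Under tetracycline it had 380.1 and 498 fasted and 879.6 and 322 fed, which overlap. The deposited change there was -0.45 (SE 0.58, -1.59 to 0.68, adjusted p = 1) and was not called. Its sign rested on fed library 1, without which the value was 0.45.

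Summed over both copies, which removes the doubt about reads shared between them, desaturase normalized counts were 544 and 667 fasted against 4413 and 3922 fed without tetracycline. With tetracycline they were 1064 and 893 against 4434 and 2443. The fasted sums lay below the fed sums in both tables. Scd2 made up 79.1% (75.6 to 82.3) and 68.5% (64.7 to 72.2) of the summed counts in the fasted libraries without tetracycline and 89.3% (88.3 to 90.2) and 82.4% (81.1 to 83.6) in the fed ones. With tetracycline the shares were 64.3% (61.6 to 66.9) and 44.2% (40.4 to 48.1) fasted and 80.2% (79.1 to 81.2) and 86.8% (85.3 to 88.2) fed. The share was lower in every fasted library than in every fed library of its table. The remaining copies, Scd3 and Scd4, were close to background, with deposited means of 1.3 and 7.1 without and 3.36 and 7.26 with tetracycline.

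The transcription factor genes were not called in either table. Srebf1 (chr11:60199089-60222581, - strand) had 7832 and 5391 normalized counts fasted and 4698 and 4858 fed without tetracycline. With tetracycline it had 4809 and 12001 fasted and 4789 and 4659 fed. The fasted libraries lay above the fed ones in both tables, by a small margin for fasted library 1 with tetracycline. The authors' deposited changes were 0.47 (SE 0.28, 95% interval -0.09 to 1.02) and 0.83 (SE 0.53, -0.20 to 1.86). Without fasted library 2 the value with tetracycline was 0.03, so its size came from that library. The value without tetracycline was 0.17 when fasted library 1 was left out. The counts do not separate the transcripts of Srebf1, of which SREBP-1a and SREBP-1c are known.

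Mlxipl (chr5:135089890-135138382, + strand) had 9511 and 9709 normalized counts fasted and 8663 and 6949 fed without tetracycline. With tetracycline it had 8793 and 9522 against 8457 and 8108. It lay higher in the fasted libraries of both tables by small amounts, and the deposited changes were 0.30 (95% interval -0.20 to 0.80) and 0.14 (-0.54 to 0.83). The library kit does not keep the strand. Exons of other genes cover 4.24% of the exon bases of Mlxipl and 3.11% of those of Srebf1, and less of the other 8 members.

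Levels were compared between genes per kilobase of median coding transcript length. The order depends on this choice of length. For Elovl6 it was 2.61 kb, the median of 3 transcripts, while all its exons together cover 6431 bases. In fed mice without tetracycline Elovl6 was highest at 3330.1 normalized counts per kb, followed by Mlxipl (2155) and Me1 (1673), whose libraries overlapped. Acly (1155) and Srebf1 (1111) came next and overlapped, then Scd2 (657) and Fasn (583), which overlapped as well. Acaca (223), Scd1 (121) and Acacb (27.5) were the lowest, each apart from its neighbours. In fasted mice the desaturases moved to the bottom of this order, with Scd2 at 81.3 and Scd1 at 33.5 per kb, and Acacb (298) stood above Acaca (183). Mlxipl (2653), Me1 (2597) and Elovl6 (2063) led and overlapped in sequence. With tetracycline Acacb and Acaca were at 35.7 and 239 per kb in fed mice, and at 212 and 203, with overlapping libraries, in fasted mice.

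Whether the fasting change differed with tetracycline was tested for each gene by a Wald test of the difference between the deposited changes. Over 17571 genes 4 were called (0.0228%), with 185 at an unadjusted p under 0.05. None of the 10 genes was called, and 1, Scd1, had an unadjusted p under 0.05. Its difference, with minus without tetracycline, was 1.40 (SE 0.70, 95% interval 0.02 to 2.77, with an adjusted p = 1 by the Wald test on the DESeq2 changes, Benjamini-Hochberg adjustment). For Acacb the difference was -0.86 (SE 0.66, -2.15 to 0.42) and for Scd2 0.62 (SE 0.56, -0.48 to 1.72). The intervals of the other 7 members also held 0, and ran from as low as -1.53 for Fasn to as high as 1.53 for Srebf1.

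Tetracycline levels within a feeding state were compared without a test, since the tables were scaled separately. Each log2 ratio of tetracycline over none was centred on the median of 13194 genes, which was 0.02 in fed and 0.07 in fasted mice. In fed mice the ratios ran from -0.36 (Scd2) to 0.35 (Acacb), with a median of 0.05. Before centring the libraries of 9 of the 10 genes overlapped there. Acly was higher with tetracycline, at 6019 and 5492 normalized counts against 5455 and 4422. That margin is smaller than the centring of 0.02, so its libraries also overlap once centred. In fasted mice the ratios ran from -0.65 (Elovl6) to 1.37 (Scd1), with a median of -0.13. Scd1 had mean normalized counts of 161 without and 439 with tetracycline in fasted mice, and 583 and 601 in fed mice, so its levels lay apart in fasted mice alone. Elovl6 had 5384 and 3609.6 in fasted mice, also without overlap.

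Genes around the pathway were described by lists, using the authors' adjusted p. Over all tested genes, 10.8% without and 5.34% with tetracycline had an unadjusted p under 0.05, the background for the unadjusted counts of the lists. Among the regulators of SREBP-1 and ChREBP, 0 of 24 tested genes were called in either table by the DESeq2 Wald test, with 2 and 0 at an unadjusted p under 0.05 without and with tetracycline. The median log2 change was 0.00 and -0.05, beside 0.02 and -0.02 over all genes with a mean of at least 1. SCAP carries SREBP out of the endoplasmic reticulum and the INSIG proteins hold it back. The deposited change of Scap was -0.01 (SE 0.25) without and 0.33 (SE 0.38) with tetracycline, and that of Insig1 -0.25 (SE 0.26) and -0.20 (SE 0.42). Insig2 had 0.25 (SE 0.33) and 0.23 (SE 0.49), and Srebf2, the sterol-sensing relative of Srebf1, -0.25 (SE 0.24) and -0.09 (SE 0.37). Thrsp, a lipogenic gene of liver and fat, was at 0 in all fasted libraries and at 0 and 3.01, and 6.3 and 5.39, in the fed libraries without and with tetracycline, close to the floor of 3 counts.

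In the list for acetyl-CoA and NADPH supply 1 of 20 genes was called, higher, without tetracycline, and 0 with it by DESeq2, with 5 and 1 at an unadjusted p under 0.05 and medians of -0.26 and -0.02. Without tetracycline 15 of the 20 had a deposited change below 0, among them 4 of the 5 with an unadjusted p under 0.05: Mdh2 (-0.71), Taldo1 (-0.57), G6pdx (-0.55) and Mpc2 (-0.55), none of them called. With tetracycline 10 of the 20 lay below 0 and 10 above, and these 4 genes had -0.31, -0.30, -0.42 and -0.05. The called gene was Me3, a mitochondrial malic enzyme, with 248 and 297 normalized counts fasted and 130.0 and 97.5 fed (log2 change 1.26, SE 0.37, DESeq2 adjusted p = 0.036). Under tetracycline it had 421 and 199 fasted against 86.6 and 71.2 fed, which do not overlap, and the adjusted p of 0.0605 missed the threshold. In the list for elongation and desaturation 0 of 17 tested genes were called in either table by DESeq2 (3 and 0 at an unadjusted p under 0.05), with medians of -0.11 and 0.22. The list for malonyl-CoA and mitochondrial fatty acid synthesis had 0 of 11 called in either table (1 and 0 unadjusted), with medians of -0.06 and 0.12.

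Downstream of synthesis, the list for fatty acid activation and esterification had 1 of 19 tested genes called, higher, without tetracycline and 0 with it (3 and 3 at an unadjusted p under 0.05), with medians of 0.09 and 0.49. The called gene was Acsl1, an acyl-CoA synthetase, with 9666 and 11511 normalized counts fasted and 4845 and 5053 fed (log2 change 1.10, SE 0.25, DESeq2 adjusted p = 0.00159). With tetracycline its deposited change was 1.06 (SE 0.52, adjusted p = 0.91). Of carbohydrate-response targets 1 of 10 was called, higher, without and 0 with tetracycline (2 and 2 at an unadjusted p under 0.05), with medians of 0.36 and 0.25. The called gene was G6pc, the phosphatase that releases free glucose, with 11268 and 4589.9 fasted against 2212 and 3550.4 fed (log2 change 1.46, SE 0.41, DESeq2 adjusted p = 0.0206). With tetracycline its libraries overlapped, with 2025 and 10836 fasted against 1481 and 2187 fed (log2 change 1.81, SE 0.72, adjusted p = 0.584).

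Genes of fatty acid oxidation, set beside those of synthesis, were called higher and not lower. Of the 16 genes 8 were called higher and 0 lower without tetracycline, and 4 higher and 0 lower with it, with medians of 0.94 and 1.15. Without and with tetracycline the authors' deposited tables give log2 changes of 3.83 (SE 0.37) and 3.22 (SE 0.56) for the acyl-CoA thioesterase gene Acot1, and for Acot2 2.51 (SE 0.35) and 2.01 (SE 0.43). Pdk4, which holds back pyruvate oxidation, had 2.27 (SE 0.38) and 2.90 (SE 0.62). These 3 genes were called in both tables.

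**Figure D4:**
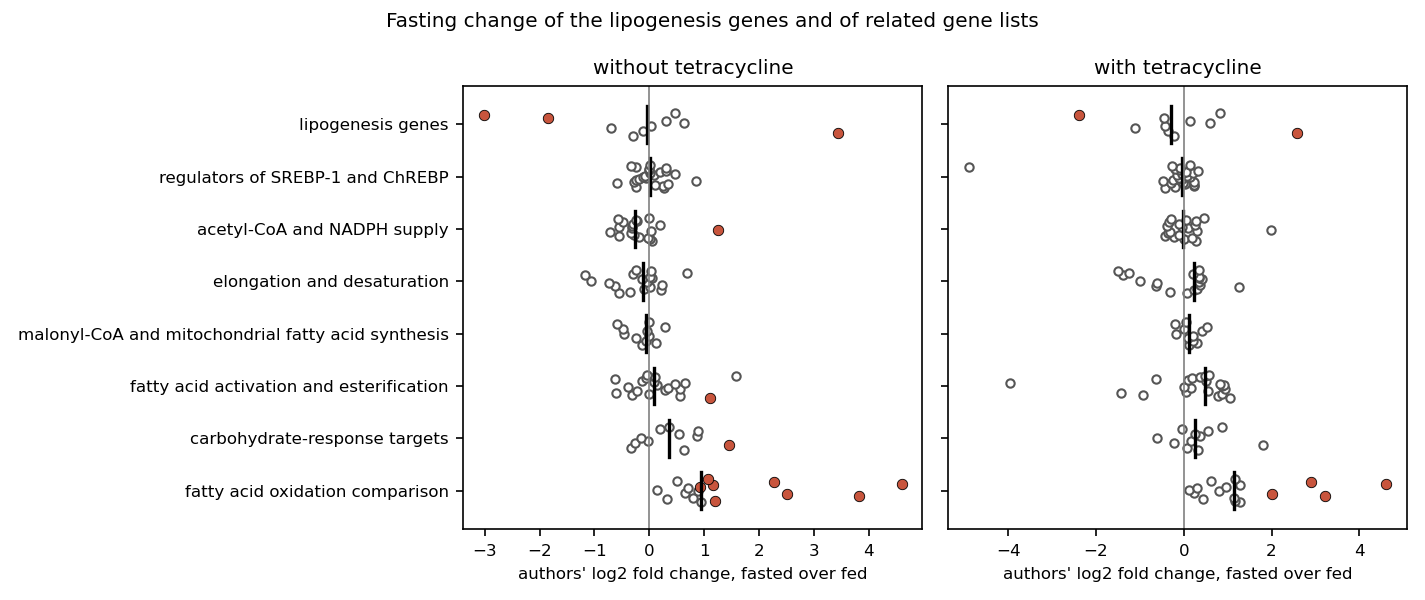
The authors' log2 fold change, fasted over fed (horizontal axes), of the 10 lipogenesis genes and of the 7 related lists without and with tetracycline, with 1 point per gene with a mean of at least 1, filled where the adjusted p is under 0.05, and a bar at each list's median. The lipogenesis genes reach both ends of the axis, from -3.01 to 3.44 without tetracycline, while all 16 fatty acid oxidation genes lie to the right of 0.

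Of the markers of cells that a crypt preparation can hold, all 7 crypt base stem, 8 Paneth, 12 enterocyte and 7 goblet markers were listed in both tables. Stem markers had 0 of 7 called in either table (DESeq2, 1 and 0 at an unadjusted p under 0.05). Goblet markers had 1 of 7 called lower without and 0 with tetracycline (2 and 0 unadjusted), with rebuilt sums of 646166 fasted against 697208 fed, and 565739 against 449109. Of the Paneth markers 7 of 8 were called higher in fasted mice without tetracycline and 0 with it (DESeq2, 1 at an unadjusted p under 0.05), and their rebuilt sums were 709375 fasted against 356574 fed, and 820966 against 372196. Of 12 enterocyte markers 1 was called higher without and 0 with tetracycline (DESeq2, 4 and 3 at an unadjusted p under 0.05), with sums of 2388906 against 1681729 and 2557136 against 1345082. Lymphocyte markers, 6 of 6 listed, summed to 4229.7 and 8696 normalized counts fasted and 10797 and 14226 fed without tetracycline, and to 15007 and 2336 against 45839.9 and 11763 with it. Stromal markers, 6 of 6 listed, summed to 762 and 1458 against 1563 and 2895, and to 2023 and 746 against 3692 and 1486. Of each of these 2 lists 3 were called lower without tetracycline. Myeloid markers, 6 of 6 listed and 1 called lower without tetracycline, summed to 1246 and 1587 against 2119 and 3363, and to 1938 and 704 against 5139.9 and 2427. Proliferation markers, 0 of 8 called in either table (DESeq2, 3 and 0 at an unadjusted p under 0.05), had mean sums of 33977 fasted against 48068 fed, and 34487 against 49018. The lymphocyte, stromal and myeloid sums were thus lower in every fasted library without tetracycline, as were Scd1 and Scd2, and the myeloid sum and Scd2 were so with it too. The rebuilt Paneth and enterocyte sums were higher in the fasted groups of both tables, as was Acacb, though few enterocyte markers were called. Hepatocyte markers, 1 of 7 called higher without tetracycline, summed to 835 and 1337 normalized counts fasted against 866 and 617 fed. With tetracycline they summed to 1865 and 1260.2 against 569 and 969.6. Pancreatic acinar markers had 0 of 12 called in either table (DESeq2, 5 and 0 at an unadjusted p under 0.05). Their median log2 change was -1.62 and -0.43, with rebuilt sums of 5898 fasted against 4532 fed, and 7221 against 4849. The part of any of these cell types in the results was not tested.

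Markers of adipocytes, which are known to express these genes strongly, were near background apart from Cidec, a lipid droplet gene with 1634 to 6623 normalized counts per library. Without Cidec, the decoded adipocyte markers, 7 and 8 of 9, summed to 28 to 38.5 normalized counts per library without and 19.3 to 71.7 with tetracycline. Adipoq, their defining gene, was at 0 in all 4 fasted libraries and at 1 and 2 counts in the fed libraries without tetracycline, and Lep was not listed. Fasted library 2 with tetracycline stood apart: beside its high Srebf1 and low Acacb, its lymphocyte sum of 2336 was the lowest of its table. Stem, Paneth and proliferation sums were lower in it than in fasted library 1 as well. The 5 decoded crypt base stem markers summed to 6974 normalized counts against 18869, the 3 decoded Paneth markers to 6384 against 24339.8, and the proliferation markers to 26343 against 42624. Acacb and the decoded Paneth sum were thus both lower in this library than in the other fasted one. Other values went the opposite way. G6pc had 10836 normalized counts in it against 2025 in fasted library 1, and the adipocyte sum, mostly Cidec, was 6642 against 1702. No enterocyte marker was decoded, so their sum in this library is not known. The part of this library's make-up in the results with tetracycline was not tested.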

How the data were processed

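The members and gene lists were chosen with earlier results of these data known. RNA of crypt samples, 4 labelled samples in 4 groups, was made into libraries that do not record the strand, per the labels' protocols. Salmon, DESeq2 and the build mm10 are named in the submitters' processing notes, with no versions. Per the file headers the authors deposited, for each tetracycline state, a signal (the mean over libraries of counts divided by size factors), a log2 fold change with its standard error, a score (the Wald statistic, change over standard error) and p-values with a Benjamini-Hochberg adjustment. There were 0 unused columns of single samples.

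Because each library adds its whole count divided by a constant to the mean, the mean was decoded into counts of 4 libraries per table where 1 solution also met the deposited fold change and standard error. Of genes with a mean under 5, 4 without and 7 with tetracycline were decoded from the mean alone, where 1 solution gave it, among them Thrsp and Adipoq but none of the members. This worked for 162 of 163 listed genes tried without and 163 of 168 with tetracycline (means up to 12000). For the members the decoded counts gave the deposited change within 7.42e-07 and 2.764e-06, with the next best solution at least 0.001478 and 0.0001488 away. The deposited change entered this search, so it is no independent check. The decoding that uses all 3 values was tested on simulated data. No test was run on decoded libraries.

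The difference of fasting changes was tested by a Wald test over genes that carry an adjusted p in each of them. Tetracycline levels are group means rebuilt from mean and change (pseudocount 1, centred over genes whose mean was 50 or more). The sum of all deposited means was 6.586e+07 and 6.533e+07, which times the size factors puts the libraries at roughly 6.124e+07 to 7.18e+07 and 4.748e+07 to 8.296e+07 counts. Gene identifiers matched GENCODE M21 without the version for 99.3% and 99.2% of rows, with most versions 1 higher in the deposited tables, and coordinates are those of M21 on GRCm38. Beside the 10 members, genes are named where they were called in a list, at most 4 per list and table, or belong to Scd3, Scd4, Thrsp, Insig1, Insig2, Scap and Srebf2; 1 gene that this rule names is not reported here. Cidec, Adipoq and Lep, Mdh2, Taldo1, G6pdx and Mpc2, and Fads3, Fads1 and Elovl5, were named after their values were seen. Alternatives changed the threshold (adjusted p under 0.01 or 0.1), the genes adjusted over, the scaling, the spread of the statistic, the pseudocount (10) and the libraries. Python 3.11.15 with numpy 2.4.6, pandas 2.3.3, scipy 1.17.1, Biopython 1.88 and matplotlib 3.10.9 was used.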

Additional observations from a re-analysis of the deposited data

How the results depend on the processing

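All 17 alternatives tried for the counts of called genes gave 3 without tetracycline (Acacb, Scd1, Scd2), 2 with it (Acacb, Scd2) and 0 for the difference. Calls could not be refitted without a library, because the tables hold no counts per library; changes without 1 library are values with no test. Of 80 such values 71 stayed within the standard error, and 0 of 5 called changes turned sign. Acacb ranged from 3.19 to 3.64 without and 1.83 to 3.17 with tetracycline, Scd2 from -3.15 to -2.86 and -2.85 to -1.98, and Scd1 from -2.36 to -1.47 without tetracycline. Of 15 uncalled changes 3 turned sign, those of Fasn and Acly without and Scd1 with tetracycline. All 60 changes under another pseudocount or centring stayed within the standard error. The median tetracycline ratio of the 10 genes was 0.05 in fed mice (-0.02 to 0.09 without 1 library) and -0.13 in fasted mice (-0.23 to 0.01).

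No paired analysis was possible because the labels give 1 sample per group and the libraries carry no replicate numbers. With 2 libraries a side, the median standard error over tested genes was 0.34 without and 0.49 with tetracycline, and 0.26 to 0.39 and 0.35 to 0.59 for the members, so smaller changes can be missed.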
